A study of Mus musculus with 2 samples.

Results

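The genes *Foxp2*, *Skor2*, *Ca8* (annotated as *Car8*), *Pcp2*, *Pcp4*, *Calb1* and *Rora*, all known from Purkinje cells, were followed through single-cell RNA sequencing of the embryonic mouse cerebellum. They were taken as a list of names, and all 7 were found among the 32285 annotated genes of both count matrices. They were read to see whether any cells held them together as a Purkinje cell would, and which other cells used each. The tissue was whole cerebellum at E16.5, late in gestation, dissociated with papain, cleared of dead cells by sorting on 7-AAD, and loaded at 40000 cells per library on the Chromium 3′ v3.1 chemistry. The control library came from cre-negative embryos, and the labels do not state whether these carried the conditional alleles. The mutant library came from embryos that carried Blbp-cre together with the conditional alleles Ctnnb1(ex3)fl/wt and Smarca4fl/fl and had cerebellar lesions. In these, Cre driven from the promoter of *Blbp* (*Fabp7*), a gene of radial glia and neural progenitors, removes exon 3 of 1 *Ctnnb1* allele, which leaves a stabilised β-catenin, and both alleles of *Smarca4*, the ATPase of the BAF chromatin remodelling complex. Each library was a pool of 3 samples of 1 genotype. With 1 library per genotype there was no replicate and no test, and every interval given is a 95% interval that covers counting error only.

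Purkinje cells are the output neurons of the cerebellar cortex and are GABAergic. They arise from *Ptf1a*-positive progenitors of the ventricular zone, leave the cell cycle well before birth and gather under the cortical surface, where they secrete the Sonic hedgehog that drives granule cell precursors to divide. *Foxp2*, *Skor2* and *Rora* encode transcription factors, *Ca8* and *Calb1* encode proteins that tune intracellular calcium, *Pcp4* encodes a calmodulin-binding peptide and *Pcp2* a G-protein modulator. *Skor2* and *Pcp2* are the narrowest markers of the set in the cerebellum, whereas *Foxp2*, *Pcp4*, *Calb1* and *Rora* are also used by many neurons and other cells elsewhere in the body.

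In the GENCODE M21 annotation on GRCm38, *Foxp2* (ENSMUSG00000029563) spans chromosome 6 from 14901349 to 15441977, *Rora* (ENSMUSG00000032238) spans chromosome 9 from 68653786 to 69388246 and *Skor2* (ENSMUSG00000091519) spans chromosome 18 from 76856405 to 76900342. *Ca8* (ENSMUSG00000041261) and *Calb1* (ENSMUSG00000028222) both lie on chromosome 4, from 8143362 to 8239041 and from 15881264 to 15908064. *Pcp2* (ENSMUSG00000004630) spans chromosome 8 from 3623371 to 3625545, and *Pcp4* (ENSMUSG00000090223) spans chromosome 16 from 96467606 to 96525793.

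The matrices held 21457 control and 21596 mutant barcodes with 225512196 and 220565819 UMIs, a UMI being 1 captured RNA molecule. After filtering and removal of called doublets, 15969 control and 15864 mutant cells remained, with a median of 10016 and 9714 UMIs. A total of 123 barcodes occurred in both libraries, and none of them belonged to a cell with *Skor2* or to a cell holding at least 4 of the 7 genes. Clustering without the 7 genes and their related lists gave 35 clusters, 24 of them named from markers. The 8 clusters numbered 15, 16, 17, 22, 28, 32, 33 and 34 are called mutant-dominated, because each made up 5 or more times as large a percentage of mutant cells as of control cells. They held 8679 mutant cells, 54.7% of that library, and 151 control cells, 0.946%. All 8 are given by number, although clusters 15 and 22 are among the 24 that met a name, neural progenitor or astroglia. *Smarca4* itself stood at 68.2 CPM (UMIs scaled to 1000000 per library) in the control and 49.5 CPM in the mutant library, and 3′ tags need not fall in the deleted part of the gene.

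No cluster could be named Purkinje cell in either library. A marker was counted as enriched at a log2 ratio of at least 1 to all other cells. It also needed a UMI in at least 10% of the cluster's cells. Of 8 Purkinje cell markers, the 7 genes except *Pcp4* together with *Lhx1* and *Lhx5*, at most 2 were enriched in any cluster, and *Skor2* was enriched in none. *Skor2* had a UMI in only 13 kept control and 10 kept mutant cells, so it could have passed only in a small cluster. Purkinje cell was the best-matching type of the unnamed cluster 16, through *Foxp2* and *Calb1*, and that cluster held 4 control and 1687 mutant cells. At Leiden resolution 2, 1 cluster had 3 enriched (*Foxp2*, *Calb1* and *Lhx5*) and was named PAX2-type GABAergic interneuron-like. The count of clusters named Purkinje cell was 0 in all 5 clusterings that were run, including 1 in which the 7 genes took part. A name needed at least 3 enriched markers and 50% of the markers of its type. Purkinje cells that made up a small part of a cluster would not have named it, so this count does not show their absence.

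The raw UMIs divided the 7 genes into broad and very sparse ones. Over all deposited barcodes, *Skor2* gave 24 UMIs in 17 control barcodes and 15 UMIs in 10 mutant barcodes, with at most 5 in 1 barcode. *Pcp2* gave 46 UMIs in 32 control barcodes and a single UMI in the mutant library. Neither marker was found in more than 32 barcodes of a library. *Ca8* gave 1286 UMIs in 709 control and 1147 UMIs in 492 mutant barcodes. *Calb1* gave 408 UMIs in 206 control and 2844 UMIs in 735 mutant barcodes. The remaining genes were found in far more barcodes, at least 2892 in each library, with 19454 and 55771 UMIs for *Foxp2*, 9433 and 17257 for *Pcp4*, and 52972 and 46896 for *Rora* in control and mutant.

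Among the transcription factors, *Foxp2* stood at 98.2 CPM in the kept control cells and 292 CPM in the kept mutant cells, a ratio of 2.98 (2.92 to 3.03). *Rora* stood at 262 CPM in the control and 244 CPM in the mutant, a ratio of 0.931 (0.919 to 0.944). *Skor2*, a corepressor needed for Purkinje cell differentiation, stood at 0.114 CPM in the control (20 UMIs in 13 kept cells) and 0.0865 CPM in the mutant (15 UMIs in 10 kept cells). Its ratio of 0.760 had an interval of 0.362 to 1.56, so a difference in *Skor2* was not detectable at this depth.

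Among the calcium and signalling genes, *Calb1*, which encodes the calcium buffer calbindin, stood at 1.93 CPM in the control and 15.4 CPM in the mutant, a ratio of 8.0 (7.14 to 8.98). *Pcp4* stood at 48.3 CPM in the control and 92.1 CPM in the mutant, a ratio of 1.91 (1.86 to 1.96). *Ca8* was close in both, at 6.43 and 6.04 CPM (ratio 0.939, 0.863 to 1.02). *Pcp2* stood at 0.210 CPM in the control, from 37 UMIs in 26 kept cells, and at 0.00577 CPM in the mutant, from 1 UMI. The *Pcp2* ratio was 0.0274 with an interval of 0.000676 to 0.162.

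A gene was called higher or lower where it reached 10 CPM in either library, its level differed at least 1.5-fold and the interval of the ratio lay on 1 side of 1. By this rule 4 of the 7 genes could be called, 3 were higher in the mutant (*Foxp2*, *Pcp4*, *Calb1*), 0 were lower, and *Rora* was neither. Of all 9785 genes at that level, 8.64% were higher and 6.25% were lower. The median log2 ratio of the 4 genes, with 1 CPM added to each level, was 1.24, and that of all genes was 0.03. *Skor2*, *Ca8* and *Pcp2* were under 10 CPM in both libraries and were not called.

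**Figure D1:**
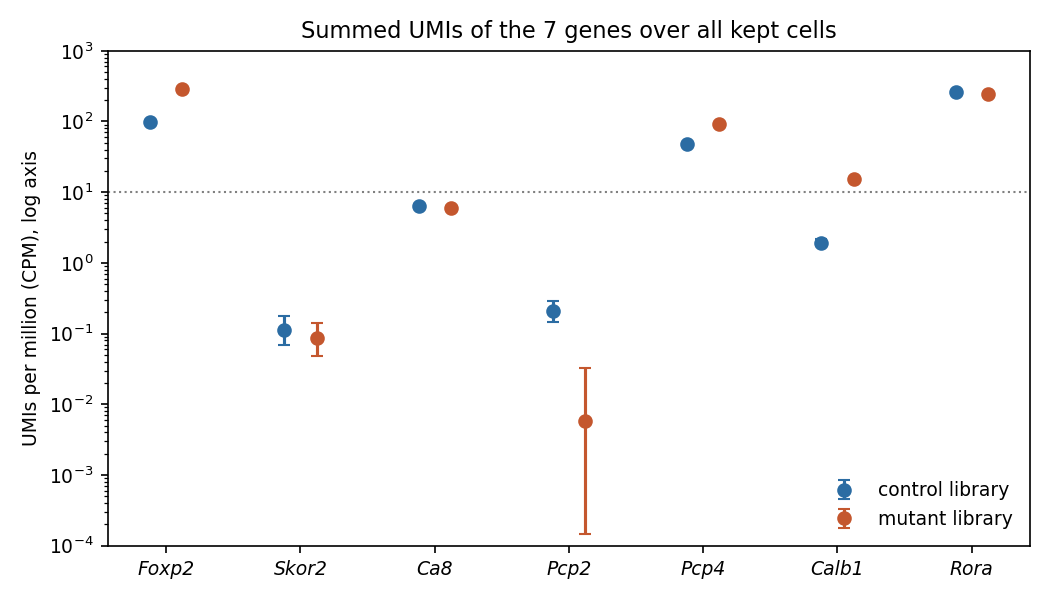
Summed level of each of the 7 genes (CPM, log axis) over all kept cells of the control library (blue) and the mutant library (orange). Bars are 95% Poisson intervals of the count, most of them smaller than the points, and the dotted line is the 10 CPM minimum for a call; *Foxp2*, *Pcp4* and *Calb1* lay above their control level in the mutant, and *Pcp2* rests on 1 mutant UMI.

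The mutant-dominated clusters, with 54.7% of mutant cells, held the mutant UMIs of the genes unevenly. They contained 75.4% of the mutant UMIs of *Foxp2*, 77.9% of those of *Calb1*, 56.4% of those of *Rora*, 48.1% of those of *Pcp4* and 18.2% of those of *Ca8*. With these clusters left out of both libraries, *Foxp2* stood at 95.6 and 155 CPM, a ratio of 1.62 (1.59 to 1.66). *Pcp4* stood at 46.2 and 103 CPM, a ratio of 2.24 (2.17 to 2.31). *Ca8* then reached 6.44 and 10.7 CPM, a ratio of 1.66 (1.51 to 1.81), and was called higher. *Calb1* fell under the 10 CPM minimum, at 1.94 and 7.37 CPM, with a ratio of 3.80 (3.32 to 4.35). *Rora* remained near its control level, at 262 and 229.5 CPM (ratio 0.876). Among the cells outside these clusters, 6.46% of 9716 genes were higher and 3.34% were lower. In summed counts of a whole library, a change in the number of cells of a type and a change in RNA per cell cannot be told apart, so the genes were next read class by class. Orders of levels below cover classes with at least 50 cells in the library concerned.

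*Foxp2* was used widely. In the control library it led in cluster 28, an unnamed cluster headed by *Ndst4* and *Tfap2d*, at 486 CPM (443 to 532), and 40.2% of its cells held a *Foxp2* UMI after each cell had been thinned at random to 3000 UMIs. Motile ciliated or ependymal-like cells followed at 422 CPM (392 to 454), an interval that overlapped that of cluster 28, and midbrain or isthmic neuron-like cells at 316 CPM (294 to 339). Fibroblast or meninges-like cells held 262 CPM and unipolar brush cell-like cells 139 CPM, and the latter class alone contained 5606 of the 17265 kept control UMIs. In the mutant library cluster 28 again led, at 1162 CPM (1143 to 1182), ahead of fibroblast or meninges-like cells at 391 CPM and of cluster 16, a mutant-dominated cluster headed by *B230216N24Rik* and *Tnr*, at 379 CPM. The intervals of those last 2 overlapped. The lowest class in both libraries was erythroid-like, at 7.96 and 20.0 CPM. Red blood cells should lack these genes, so their levels are given as the background that free RNA in the suspension can leave in any droplet. In that class 2.92% of control and 4.05% of mutant cells held *Foxp2* after thinning, far below the leading classes. Haemoglobin genes mark the class, and 3424 genes reached 10 CPM in it, against 9785 over all kept cells. Its CPM and thinned shares may therefore understate free RNA per droplet. Its 351 control cells held 43 *Foxp2* UMIs, and 2182 differentiating granule neuron-like cells held 363.

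*Rora* encodes a nuclear receptor whose loss causes the staggerer phenotype. In the control library it led in cluster 6, an unnamed cluster of low UMI count, at 1332 CPM (1277 to 1388), in fibroblast or meninges-like cells at 1220 CPM (1186 to 1255) and in cluster 1, a cluster in which *Rbfox3* and *Pax6* were enriched, at 1190 CPM (1150 to 1232). The intervals of the last 2 overlapped. Pericyte or mural-like cells held 806 CPM and neural progenitor or astroglia-like cells 549.5 CPM. In the mutant library the order was cluster 6 at 870.1 CPM, fibroblast or meninges-like cells at 835 CPM, which overlapped in their intervals, and pericyte or mural-like cells at 629 CPM. Midbrain or isthmic neuron-like cells, which held most of the control *Skor2*, had 391 CPM in the control and 244 CPM in the mutant. *Rora* was lowest in erythroid-like cells, at 10.9 and 14.5 CPM.

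*Skor2* was concentrated in 1 class in the control library. Of its 20 kept control UMIs, 17 lay in 10 of the 253 midbrain or isthmic neuron-like cells, a level of 7.02 CPM (4.09 to 11.2). A single UMI each fell on a neural progenitor or astroglia-like cell, a unipolar brush cell-like cell and 1 of the 4 control cells of cluster 16. Of the 15 mutant UMIs, 6 lay in 4 of the 776 midbrain or isthmic neuron-like cells, a level of 0.807 CPM (0.296 to 1.76). The others lay in clusters 16, 15, 33 and 17, with 3, 3, 2 and 1 UMIs. Within the midbrain or isthmic neuron-like class the ratio was 0.115 (0.0371 to 0.306), but *Skor2* was under 10 CPM there and was not called. The interval treats UMIs as independent, although up to 5 lay in 1 cell. The make-up of the class changed with the clustering, and the part of this in the ratio was not tested. Erythroid-like cells held 0 UMIs in both libraries, which allows up to 0.555 CPM in the control and 0.376 CPM in the mutant.

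The class that held most of the control *Skor2* was not of 1 kind. Its leading genes were *Snhg11*, *Sox14*, *Pnoc*, *Asic4* and *Gata3*. Of the Purkinje cell markers only *Lhx1* and *Lhx5* met the rule for enrichment, which also needs a UMI in 10% of cells. By level, its control cells held *Skor2*, *Ca8*, *Pcp2* and *Calb1* at 7.02, 19.0, 5.78 and 57.8 CPM. Over all kept control cells these stood at 0.114, 6.43, 0.210 and 1.93 CPM. Its mutant cells held them at 0.807, 12.5, 0 and 40.1 CPM, against 0.0865, 6.04, 0.00577 and 15.4 CPM over all kept mutant cells. Of the 9 control cells that held at least 4 of the 7 genes, described below, 7 lay in it. Of the same 9, 8 fell in a class named PAX2-type GABAergic interneuron-like when the Leiden resolution was 0.5, and 6 when it was 2. With the 7 genes and related lists left in the clustering, 7 of the 9 fell in an unnamed cluster of 167 control and 1178 mutant cells. The name of the class thus depends on the clustering.

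*Ca8* encodes a carbonic anhydrase relative without enzyme activity that binds the IP3 receptor. Its leading class in the control library was oligodendrocyte precursor-like, at 47.4 CPM (42.3 to 53.0), followed by neural progenitor or astroglia-like cells at 27.2 CPM (25.0 to 29.5) and cluster 6 at 25.2 CPM (18.2 to 34.1). Midbrain or isthmic neuron-like cells came next at 19.0 CPM (13.9 to 25.3), and the intervals of the last 3 overlapped. In the mutant library the same classes led in the same order, at 80.7, 42.7, 30.6 and 12.5 CPM, the middle 2 with overlapping intervals. Erythroid-like cells held 0.370 and 0.251 CPM. Most control *Ca8* UMIs therefore lay in progenitor or glia-like classes: neural progenitor or astroglia-like and oligodendrocyte precursor-like cells held 569 and 313 of the 1131.

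*Pcp2* and *Pcp4* are classical Purkinje cell transcripts on chromosomes 8 and 16, and both are reported targets of the receptor that *Rora* encodes. RefSeq promoter windows of 300 bases on GRCm38.p6 were at hand for *Pcp2*, *Pcp4* and *Rora*, running from 250 bases before the start to 50 bases after it. They were searched on both strands for AGGTCA, the half-site that nuclear receptors of this family read, whose reverse complement is TGACCT. The stretches with the motif are shown because they set the members *Pcp2* and *Pcp4* beside *Rora*. Capitals mark the motif:
Pcp2, chr8:3625542-3625571, minus strand: aaaggccttctcAGGTCAgagaccaggaga
Pcp4, chr16:96467430-96467459, plus strand: tccttgctattgTGACCTgatcagccatga
The motif began 12 bases before the most upstream of the 4 listed *Pcp2* starts and 164 bases before the *Pcp4* start, and it was not in the *Rora* window. Of all 32851 windows, 16.3% held it, and a match is a description of the letters, not a binding site.

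*Pcp2* lies inside the span of *Pet100* on the opposite strand, and the labels do not say whether counting used the strand. *Pet100* stood at 56.5 and 52.8 CPM, and *Pcp2*, which was not called, at 0.210 and 0.00577 CPM. The part of *Pet100* reads in the *Pcp2* counts was not tested. In the control library the 37 *Pcp2* UMIs were spread over 26 cells of 11 classes. Midbrain or isthmic neuron-like cells led with 14 UMIs in 4 cells, or 5.78 CPM (3.16 to 9.70), and brainstem neuron-like cells held 3 UMIs, or 0.842 CPM (0.174 to 2.46). Single UMIs in single cells made up most of the rest: 6 cells were unipolar brush cell-like, 4 were differentiating granule neuron-like and 1 was erythroid-like. In the mutant library the only *Pcp2* UMI was in cluster 17, and the 776 midbrain or isthmic neuron-like cells held 0, which allows up to 0.403 CPM.

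*Pcp4* overlaps *Igsf5* on the same strand. It led in cluster 28 of the control library at 429.9 CPM (389.8 to 473), with midbrain or isthmic neuron-like cells second at 371 CPM (347 to 396), and their intervals overlapped slightly. Motile ciliated or ependymal-like cells held 150.1 CPM, neural progenitor or astroglia-like cells 123 CPM and brainstem neuron-like cells 71.8 CPM. In the mutant library midbrain or isthmic neuron-like cells led at 595 CPM (577 to 612), ahead of motile ciliated or ependymal-like cells at 297 CPM, brainstem neuron-like cells at 266 CPM and cluster 28 at 261 CPM. The intervals of the last 3 overlapped. The lowest class was endothelial-like in both libraries, at 4.34 and 10.1 CPM, and erythroid-like cells stood at 4.44 and 25.2 CPM.

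*Calb1* was sparse in the control library, and its cells were spread over many classes. Midbrain or isthmic neuron-like cells had the highest level, 57.8 CPM (48.6 to 68.2), from 140 of the 339 UMIs in 21 of the 178 cells with *Calb1*. Neural progenitor or astroglia-like cells made up 35 of those cells, unipolar brush cell-like cells 24 and cluster 0 cells 20, with 46, 27 and 22 UMIs. By level, neural crest or Schwann-like cells came second at 9.01 CPM (5.15 to 14.6). In the mutant library 5 classes had overlapping intervals: cluster 17 at 40.6 CPM (37.7 to 43.6), midbrain or isthmic neuron-like cells at 40.1 CPM (35.6 to 44.9), cluster 16 at 38.8 CPM (36.1 to 41.7), motile ciliated or ependymal-like cells at 37.4 CPM (27.0 to 50.5) and cluster 32 at 36.2 CPM (32.4 to 40.3). Cluster 17 was headed by *Sox17*, *Neurog2* and *Hand2*, and held no control cell. Cluster 32, headed by *Lgr6*, *Pycr1* and *Ism1*, held none either. Erythroid-like cells held 0.741 and 1.88 CPM.

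**Figure D2:**
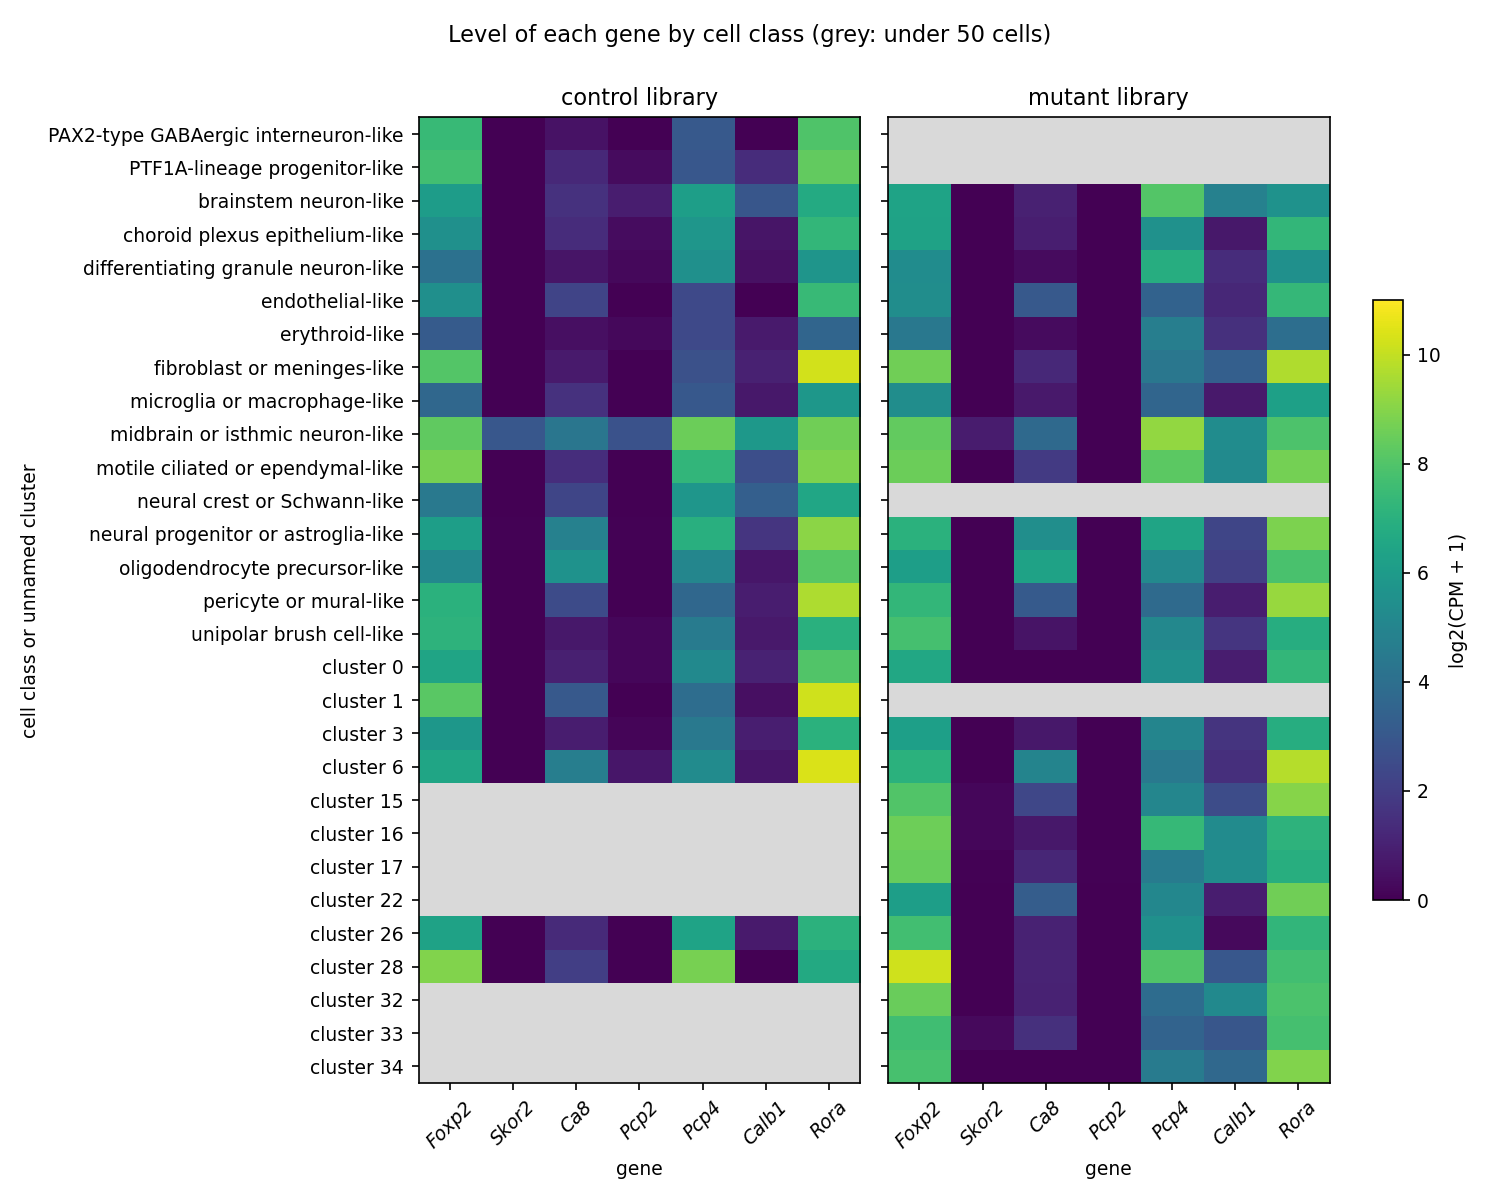
Level of each gene, as log2(CPM + 1), by cell class or unnamed cluster (rows) in the control library (left) and the mutant library (right). Grey rows have under 50 cells in that library; *Skor2* and *Pcp2* stood out only in the midbrain or isthmic neuron-like row of the control library, at 7.02 and 5.78 CPM, whereas *Foxp2* and *Rora* reached high levels in many rows.

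A total of 18 classes or clusters had at least 50 cells in both libraries. *Foxp2* was higher in the mutant in 9 of the 18, lower in 0 and neither in 9. The ratio was 2.57 in cluster 26, headed by *Dbx1* and *Lhx2*, where 3.47% of genes were higher, and 2.39 in cluster 28, where 5.63% were. It was 2.44 in differentiating granule neuron-like cells (background 3.28%), whose mutant level of 39.5 CPM lay below the 41.5 CPM of microglia or macrophage-like cells. The ratio was 2.09 in oligodendrocyte precursor-like cells (4.25%), 1.84 in neural progenitor or astroglia-like cells (3.23%), 1.75 in choroid plexus epithelium-like cells (3.12%) and 1.52 in unipolar brush cell-like cells (2.21%). It was also 2.52 in erythroid-like cells, where 37.9% of genes were higher, and 3.56 in microglia or macrophage-like cells (7.15%). Those 2 classes serve as the background of free RNA, and the part of free RNA in the other ratios was not tested. In midbrain or isthmic neuron-like cells, where 10 of 13 control and 4 of 10 mutant *Skor2* cells lay, *Foxp2* was nearly equal at 316 and 327 CPM (ratio 1.04, 0.954 to 1.12).

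The brainstem neuron-like class did not hold the same mix of cells in every clustering. It had 340 control and 213 mutant cells here, but 288 and 43 at Leiden resolution 2, 310 and 44 with the 7 genes and related lists left in, and 318 and 38 with called doublets kept. The part of this in its ratios was not tested.

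*Pcp4* went both ways, with 6 classes higher, 3 lower and 9 neither. It was higher in brainstem neuron-like cells (ratio 3.70, 3.18 to 4.32), in a class where 13.5% of genes were higher, and in midbrain or isthmic neuron-like cells (1.60, background 5.03%). The ratio was 2.54 in differentiating granule neuron-like cells, 3.54 in fibroblast or meninges-like cells (5.38%) and 1.98 in motile ciliated or ependymal-like cells (5.28%). It was 5.67 in erythroid-like cells, and the 19.7 CPM of the mutant fibroblast or meninges-like cells lay below the 25.2 CPM of the erythroid-like ones. It was lower in cluster 26 (0.535, background 2.13%), cluster 28 (0.607, 2.56%) and cluster 6 (0.538, 10.7%).

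*Rora* was higher in 1 class and lower in 4. It was higher in cluster 28, at 102 and 202 CPM (ratio 1.99, 1.63 to 2.45). It was lower in the brainstem neuron-like class, which held 105 and 47.4 CPM (0.452, 0.356 to 0.568), where 19.6% of genes were lower, and in midbrain or isthmic neuron-like cells (0.626, 0.578 to 0.678), where 6.69% were. Its ratio was 0.596 in cluster 0 (background 4.96%), an unnamed cluster with *Atoh1* and *Mfap4* enriched, and 0.653 in cluster 6.

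*Ca8* reached 10 CPM in 4 of the 18. It was higher in oligodendrocyte precursor-like cells (ratio 1.70, 1.45 to 2.0) and neural progenitor or astroglia-like cells (1.57, 1.37 to 1.80), lower in midbrain or isthmic neuron-like cells (0.658, 0.458 to 0.959) and neither in cluster 6. The neural progenitor or astroglia-like ratio leaves out the mutant-dominated clusters 15 and 22, which met the same markers. Their 1956 and 324 mutant cells held *Ca8* at 4.14 and 8.55 CPM, below the 27.2 CPM of the control class. A ratio that includes them was not tested. *Calb1* reached 10 CPM in 3. It was higher in the brainstem neuron-like class, which held 6.73 and 27.5 CPM (4.09, 2.48 to 6.91), and in motile ciliated or ependymal-like cells, at 5.22 and 37.4 CPM (7.17, 3.44 to 16.7). In midbrain or isthmic neuron-like cells it was neither, at a ratio of 0.693 (0.565 to 0.854).

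**Figure D3:**
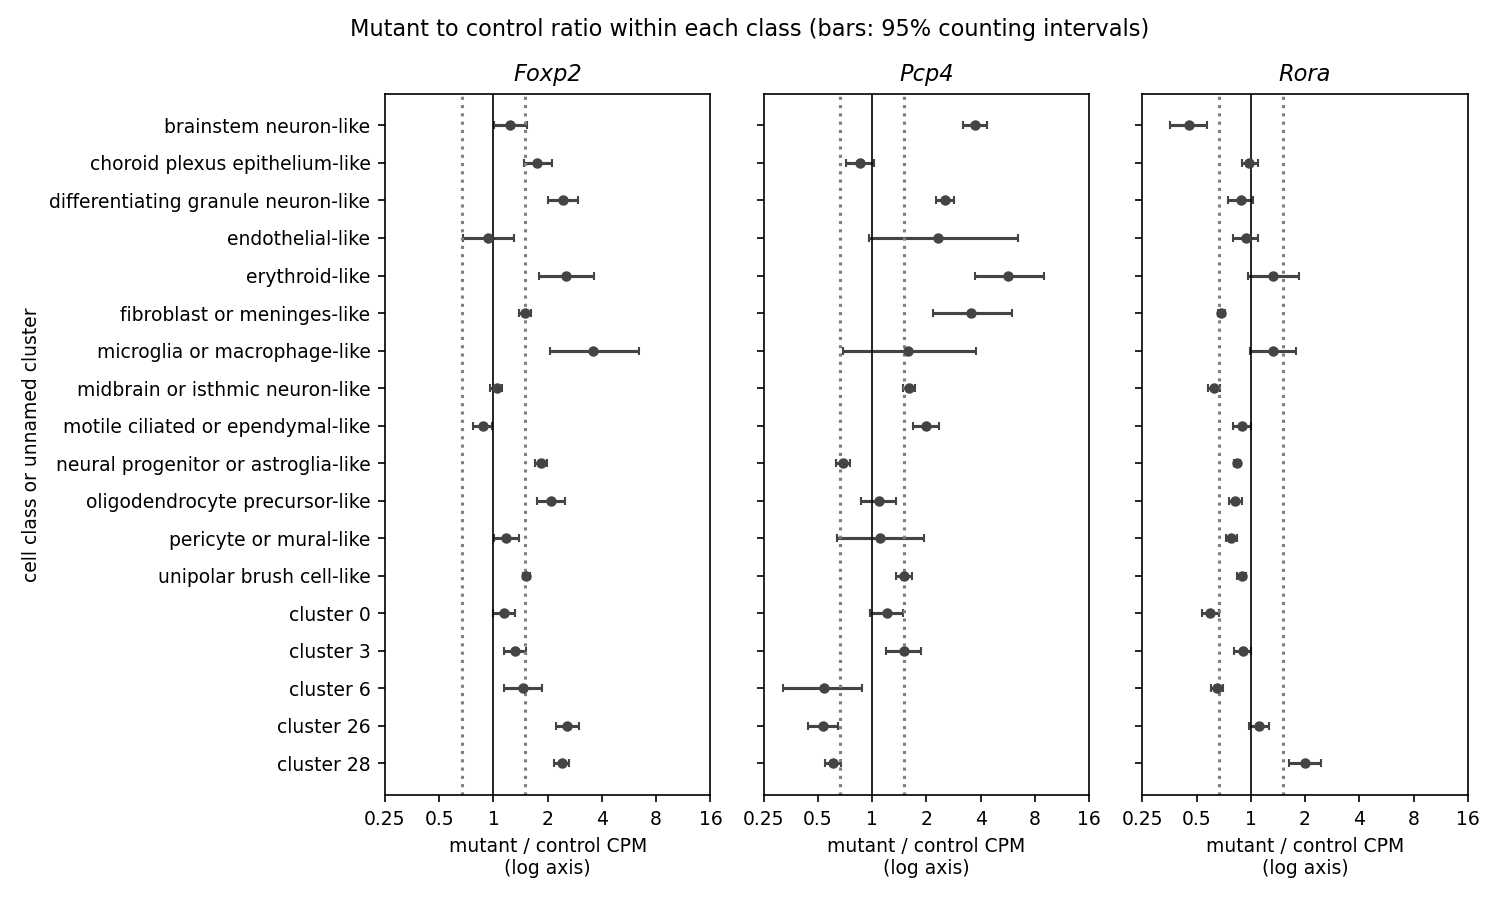
Mutant to control ratio of CPM (log axis) for *Foxp2*, *Pcp4* and *Rora* within the 18 classes or clusters (rows) that had at least 50 cells in both libraries. Points are ratios, bars are 95% counting intervals and dotted lines mark 1.5-fold either way; *Foxp2* was called higher in 9 rows and lower in 0, *Pcp4* higher in 6 and lower in 3, and *Rora* higher in 1 and lower in 4.

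The genes were then read cell by cell. Each of 13573 control and 13836 mutant cells with enough UMIs was thinned to 3000 UMIs, which left out 2396 and 2028 shallower cells. A cell was called co-expressing where at least 4 of the 7 genes had a UMI. None of the 7 was found in 50.2% of control and 38.5% of mutant cells, 1 in 35.8% and 42.7%, 2 in 13.1% and 17.2%, and 3 in 0.862% and 1.44%. Co-expressing cells numbered 9 in the control library, 0.0663% (exact Clopper-Pearson interval 0.0303 to 0.126), and 11 in the mutant library, 0.0795% (0.0397 to 0.142). The intervals of the 2 shares overlapped. No erythroid-like or microglia or macrophage-like cell was co-expressing. In control erythroid-like cells *Foxp2* was found in 2.92% and *Rora* in 3.25% after thinning. At such shares 4 genes would rarely meet in a cell, so this absence cannot show what free RNA adds. Without thinning, 1 control cell held all 7 genes and no mutant cell did.

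**Figure D4:**
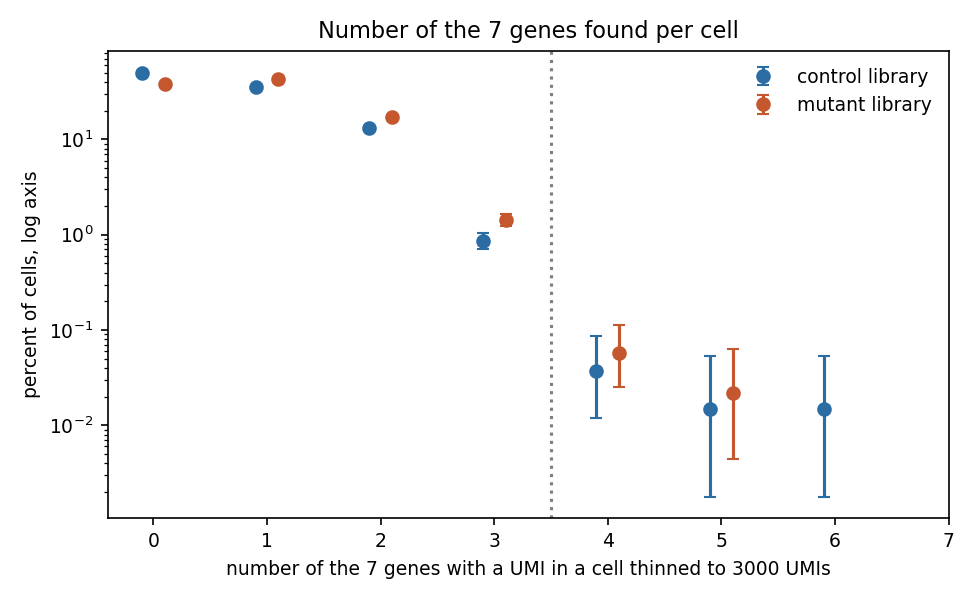
Percent of cells (log axis) by the number of the 7 genes with at least 1 UMI after thinning to 3000 UMIs, for the control library (blue) and the mutant library (orange), with 95% Clopper-Pearson bars. Numbers found in no cell have no point, and the dotted line separates the 9 control and 11 mutant co-expressing cells.

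Pairs of the broad genes met in many cells without the narrow ones. Of 2494 control cells with *Foxp2* after thinning, 52.9% also held *Rora*, against 36.1% of all cells, but 0.0802% held *Skor2* and 0.16% *Pcp2*. Of 233 control cells with *Ca8*, 62.2% held *Rora* and 12.9% *Foxp2*, the latter below the 18.4% of all cells. Of 4493 mutant cells with *Foxp2*, 38.2% held *Rora*, against 34.5% of all mutant cells, a smaller excess than in the control.

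The 9 control cells fell in 2 classes and the 11 mutant cells in 5. Of the 9, 7 were midbrain or isthmic neuron-like and 2 brainstem neuron-like, and all 9 held *Foxp2*, *Ca8* and *Rora*. In unthinned counts 4 of them held *Skor2*, 6 *Pcp2*, 8 *Pcp4* and 6 *Calb1*. The cell with the most *Foxp2* held 84 UMIs of *Foxp2*, 5 of *Skor2*, 8 of *Ca8*, 3 of *Pcp2*, 1 of *Pcp4* and 39 of *Rora* among 9497. The cell with all 7 genes held 50 of *Foxp2*, 2 of *Skor2*, 7 of *Ca8*, 1 of *Pcp2*, 1 of *Pcp4*, 2 of *Calb1* and 30 of *Rora* among 8928. A cell without *Skor2* held the most *Pcp2*, 9 UMIs, with 13 of *Pcp4* and 7 of *Calb1*. The other 3 cells of that class with *Pcp2* all held *Skor2*.

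Of the 11 mutant cells, 7 were midbrain or isthmic neuron-like and 1 each was oligodendrocyte precursor-like, neural progenitor or astroglia-like, cluster 16 and cluster 6. All 11 held *Foxp2* and *Rora*, 10 held *Pcp4*, 8 *Calb1*, 7 *Ca8* and 3 *Skor2* in unthinned counts, and 0 held *Pcp2*, which allows up to 19.6 CPM. The cell with most *Skor2* held 56 UMIs of *Foxp2*, 3 of *Skor2*, 51 of *Pcp4*, 25 of *Calb1* and 7 of *Rora* among 23371. Another held 10 of *Foxp2*, 1 of *Skor2*, 17 of *Ca8*, 35 of *Pcp4*, 8 of *Calb1* and 10 of *Rora* among 5828. The oligodendrocyte precursor-like cell had the most UMIs of the set, 36180, and a doublet score of 0.392, and a part of doublets was not tested. The cluster 6 cell met the rule with only 1 or 2 UMIs of each of 4 genes. Summed over the set, *Foxp2* stood at 3832 CPM in the control and 1159 CPM in the mutant cells, *Rora* at 2981 and 1074, *Pcp4* at 879 and 1945, and *Calb1* at 288 and 543. Those sums describe cells that the same genes selected.

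Genes that played no part in the selection were read in the same cells. *Ebf1*, a transcription factor of early Purkinje cells among many other neurons, was found in 9 of 9 control cells at 3269 CPM, against 405 CPM over all kept control cells and 408 CPM in the 243 midbrain or isthmic neuron-like cells without *Skor2*. It was found in 6 of 11 mutant cells at 1198 CPM, against 184 CPM over all kept mutant cells. *Dab1*, the adaptor of reelin signalling, was found in 9 of 9 control cells at 3090 CPM and 9 of 11 mutant cells at 1100 CPM, against 55.8 and 144 CPM over all kept cells. *Ebf2* was found in 7 of 9 and 2 of 11, and *Lhx1* in 6 of 9 and 6 of 11. *Dner*, a Purkinje cell ligand of Notch, was found in 9 of 9 and 7 of 11, and *Plcb4*, a phospholipase of the metabotropic glutamate pathway, in 6 of 9 and 7 of 11.

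Other members of the early transcription factor list were thinner. *Bcl11a* was found in 6 control and 9 mutant cells, *Foxp1* in 4 and 6, *Foxp4* in 3 and 3, *Lhx5* in 2 and 2, *Ldb1* in 1 and 0, and *Etv1* in 1 and 0. *Tfap2b* was found in 0 control and 3 mutant cells. Of the progenitor list, *Ptf1a*, *Neurog1* and *Gsx1* were found in no cell of either set and *Dll1* in 2 control cells. *Neurog2* was found in 3 mutant cells, *Olig2* in 2 and *Kirrel2* in 1. Of the GABA list, *Gad1* was found in 1 control and 6 mutant cells, *Gad2* in 3 and 4, and the vesicular transporter gene *Slc32a1* in 3 and 3.

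Midbrain markers were mostly absent from both sets. *Tal2*, *Gata3*, *Sox14* and *Pax7* had 0 UMIs in the 9 control cells, which allows up to 41.2 CPM, and 0 in the 11 mutant cells, which allows up to 19.6 CPM. The midbrain or isthmic neuron-like cells without *Skor2* held *Tal2* at 89.2 CPM in the control and 43.9 CPM in the mutant. *Tfap2d* was found in 2 mutant cells, 9 of its 10 UMIs in the oligodendrocyte precursor-like cell. *Rorb*, the nearest relative of *Rora*, was found in 1 of 9 control cells and 8 of 11 mutant cells, at 27.5 and 517 CPM, against 78.2 and 85.1 CPM over all kept cells. *En1*, a homeobox gene of the midbrain and hindbrain, was found in 0 of 9 and 8 of 11. *Rorb* and *En1* were singled out after their values were seen.

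**Figure D5:**
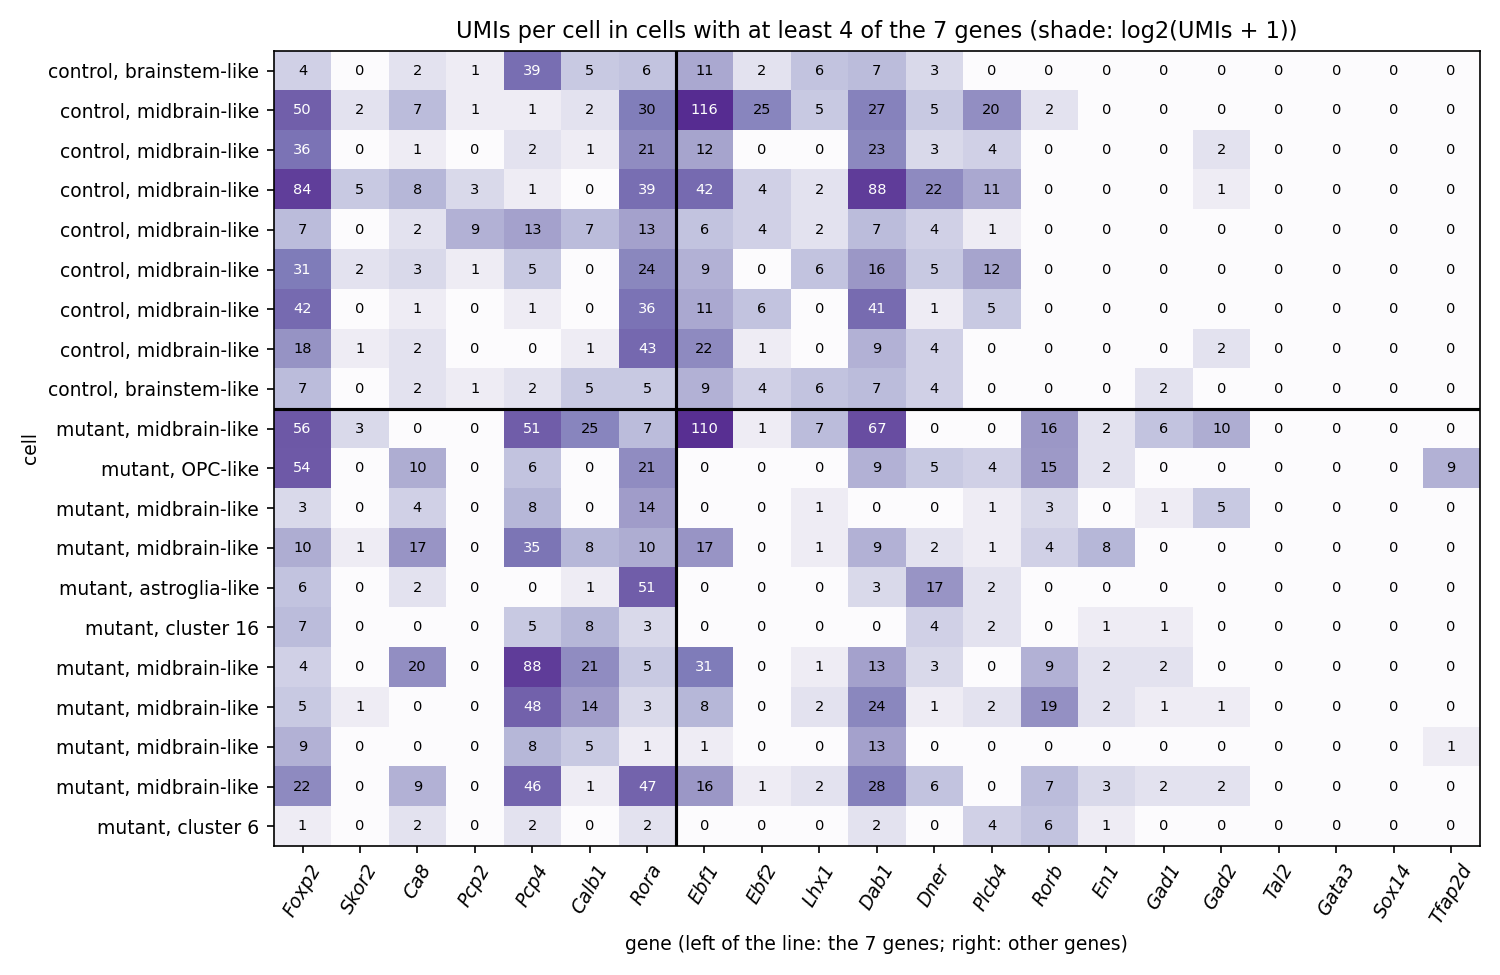
UMIs per cell, not thinned, in the 9 control and 11 mutant cells that held at least 4 of the 7 genes after thinning (rows, labelled by library and class), with shade as log2(UMIs + 1). The 7 genes are left of the vertical line and genes chosen after their values were seen are right of it; *Ebf1* and *Dab1* were found in all 9 control cells, and *Tal2*, *Gata3* and *Sox14* in no cell of either set.

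*Skor2* was also used alone to find cells. The 13 kept control cells with a *Skor2* UMI had a median of 15043 UMIs, above the 10016 of the library. Of these, 12 held *Rora*, 10 held *Foxp2*, 8 *Pcp4*, 5 *Ca8*, 3 *Pcp2* and 2 *Calb1*. *Ebf1* was found in 10 of the 13 at 1376 CPM and *Dab1* in 12 at 877 CPM. A further 4 control barcodes with *Skor2* had been left out, 3 as called doublets and 1 by the filters. The 3 called doublets each held 6 of the 7 genes, 1 of them 32 *Foxp2*, 4 *Ca8*, 2 *Pcp2*, 6 *Pcp4* and 109 *Rora* UMIs among 37872. Of the 10 mutant cells with *Skor2*, 4 were midbrain or isthmic neuron-like, and no mutant barcode with *Skor2* had been left out. In 1 of them, a cluster 15 cell, 45 *Foxp2*, 3 *Skor2*, 9 *Ca8* and 75 *Rora* UMIs stood beside 80 of *Ebf1* and 25 of *Ebf2*. The 2 cells of cluster 33 and the 1 of cluster 17 held at most 1 other gene of the set.

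Related genes were read over the whole libraries for comparison. These lists were drawn up with earlier results of these data known. Of all genes at 10 CPM or more, 8.64% were higher and 6.25% were lower, the shares to set beside the counts below. Of 10 early Purkinje cell transcription factors, 9 reached 10 CPM, 0 were higher and 3 were lower in the mutant: *Lhx5* at 10.6 and 2.01 CPM, *Lhx1* at 38.4 and 12.8 CPM and *Ebf1* at 405 and 184 CPM. The list's median log2 ratio was -0.09. *Lhx5* was enriched in PAX2-type GABAergic interneuron-like cells, which numbered 519 in the control and 9 in the mutant. It was also enriched in PTF1A-lineage progenitor-like cells (382 and 8) and midbrain or isthmic neuron-like cells. *Lhx1* was enriched in the last 2 and in clusters of differentiating granule neuron-like and unipolar brush cell-like cells, among others. The part of these cell numbers in the library levels was not tested. Of 8 ventricular zone progenitor genes 3 reached 10 CPM, 1 was higher and 2 were lower. *Neurog2* was higher at 7.79 and 77.2 CPM, and *Olig2* was among the lower ones at 24.5 and 10.7 CPM. *Ptf1a*, at 4.08 and 1.22 CPM, and *Kirrel2*, at 4.26 and 1.23 CPM, were below the minimum.

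Of 17 genes of maturing Purkinje cell signalling 11 reached 10 CPM, 0 were higher and 4 were lower, with a median of -0.27. The lower ones included *Pvalb* at 38.7 and 3.61 CPM and *Aldoc* at 125 and 50.7 CPM. *Pvalb*, which encodes the calcium buffer parvalbumin, headed cluster 0 and was found in 0 co-expressing cells. Of 5 genes of signalling to and from Purkinje cells 4 reached 10 CPM. *Dab1* (55.8 and 144 CPM) and *Vldlr* (16.1 and 25.8 CPM) were higher and *Reln* (335 and 154 CPM) was lower, with a median of 0.47. *Shh* stood at 1.26 and 1.16 CPM and was found in no co-expressing cell. Of the 3 GABA genes only *Gad1* reached 10 CPM, at 13.1 and 55.9 CPM, a log2 ratio of 2.02. All genes at that level had a median log2 ratio of 0.03, with 8.64% higher and 6.25% lower. With the mutant-dominated clusters left out, the median of all genes was -0.09, with 6.46% of them higher and 3.34% lower. There the early factors gave 1 higher and 2 lower of 10, and the progenitor genes 1 and 1 of 3. The maturing genes gave 0 and 2 of 11, the surrounding signals 1 and 1 of 4 and the GABA genes 2 and 0 of 2.

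Of 12 close relatives of the 7 genes, 7 reached 10 CPM, 1 was higher and 0 were lower, with a median of 0.07. The shares of all genes were 8.64% higher and 6.25% lower. *Calb2*, encoding calretinin, was higher at 25.4 and 103 CPM, and among the same list *Pcp4l1* (16.4 and 24.4 CPM) and *Gpsm1* (26.9 and 20.7 CPM) were neither. *Skor1*, the nearest relative of *Skor2*, was below the minimum at 5.04 and 0.283 CPM, from 887 and 49 UMIs. Outside the mutant-dominated clusters 2 of 8 relatives were higher and 0 lower, beside 6.46% and 3.34% of all genes.

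Across 59 combinations of cluster and library with at least 50 cells, the patterns of the 7 genes were little alike. The highest Pearson correlation of log2(CPM + 1) between 2 of them was 0.85, for *Skor2* and *Pcp2*, but *Skor2* was above 0 in only 8 of the 59 points and *Pcp2* in 15. *Foxp2* and *Rora* followed at 0.64, *Ca8* and *Rora* at 0.48, and *Foxp2* and *Calb1* at 0.45. All points share 2 libraries and their free RNA. Among 9788 genes, *Foxp2* was most like *Zfhx4* (0.83), *Bnc2* (0.75) and *Mir100hg* (0.75), and *Rora* was most like *Invs* (0.91), *2210408I21Rik* (0.89) and *Dnmt3a* (0.88). *Ca8* was most like *Ptprz1* (0.83), *Bcan* (0.82) and *Slc6a11* (0.81), genes best known from glia. *Pcp4* was most like *Ly6h* (0.81), *Enpp5* (0.79) and *Nap1l3* (0.79), and *Calb1* most like *Dkk1* (0.71), *Vsnl1* (0.67) and *Cbln4* (0.67). After *Pcp2*, *Skor2* was most like *Snhg11* (0.60) and *Vsnl1* (0.53), and after *Skor2*, *Pcp2* was most like *Gm27199* (0.43) and *Cntnap5a* (0.42).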

How the data were processed

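Cell Ranger 7.0.1 and the mm10 build are named in the submitters' processing notes. Whether counting used strand or introns was not given in the sources used here. Deposited values are UMI counts per gene and barcode in 1 matrix per library, and every value here was computed from them. Cells with at least 1000 UMIs, 500 genes and at most 10% mitochondrial UMIs were kept, and doublets were called with Scrublet at an expected 16% and removed (843 control and 618 mutant cells, 5.01% and 3.75%). Clustering in scanpy 1.11.5 (Python 3.11.15, numpy 2.4.6, scipy 1.17.1) used 2000 variable genes, 30 principal components, 15 neighbours and Leiden resolution 1, leaving out the 7 genes, the related lists, and mitochondrial, ribosomal, haemoglobin and sex-linked genes. Clusters were named from the markers of 20 cell types and otherwise kept by number. Mutant-dominated clusters were also kept by number where they met a name, as 15 and 22 did for neural progenitor or astroglia. Cluster 6 met the markers of erythroid cells, and clusters 26 and 28 those of glutamatergic cerebellar nuclei, but further rules left them unnamed. The rule applied to cluster 26, enrichment of the dorsal midbrain gene *Tal2* or *Tfap2d*, was set after the data were seen. UMIs were summed per library or class and scaled to CPM (a total of 1000000), with exact Poisson intervals, and ratios had exact conditional binomial intervals, all at 95%. Log2 ratios added 1 CPM. A count of 0 allows up to 3 counts. The calculations were tested on simulated data.

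With 1 pooled library per genotype there is no test between genotypes, and a called difference is one between 2 libraries. Named are the 7 genes, their leading and lowest classes, their 3 most alike genes, the 3 members of each related list with the largest log2 ratio at 10 CPM or more, and all members of the early factor, progenitor and GABA lists in co-expressing cells. Other genes named, such as *Ptf1a*, *Kirrel2*, *Shh*, *Skor1*, *Rorb* and *En1*, were chosen after their values were seen. Some list members are not reported here by name. The members, lists and markers were chosen with earlier results of these data known. Alternatives covered the cell filter, doublets, scaling, pseudocount, thinning, the number of genes and UMIs needed, and the clustering.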

Additional observations from a re-analysis of the deposited data

Results flagged for a closer look

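*Ca8*, *Pcp4* and *Rora* were called higher in some classes of the mutant library and lower in others. The log2 ratio of *Ca8* was 0.75 in oligodendrocyte precursor-like cells and -0.57 in midbrain or isthmic neuron-like cells. That of *Pcp4* was 1.87 in brainstem neuron-like cells and -0.89 in cluster 26. That of *Rora* was 0.98 in cluster 28 and -1.13 in brainstem neuron-like cells. With 1 library per genotype, none of these differences between classes was tested. The brainstem neuron-like class held 213 mutant cells here but 43, 44 and 38 in 3 of the other clusterings, while its control cells numbered 340 here and 288 to 318 there, and the part of this in its ratios was not tested. Erythroid-like and microglia or macrophage-like cells were left out of this comparison after their values were seen, because they serve as background. There the log2 ratio of *Pcp4* was 2.27 in erythroid-like cells.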

How the results depend on the processing

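No paired analysis was possible because each genotype had 1 library, and no replicate could be left out. Under each library-level alternative 3 of the 7 genes were called higher and 0 lower, but without the mutant-dominated clusters *Ca8* took the place of *Calb1*, and the log2 ratios were 0.69 for *Foxp2*, 1.14 for *Pcp4* and 1.51 for *Calb1*. That of *Ca8* changed sign there, from -0.08 to 0.65, and the log2 ratio of no other of the 7 genes changed sign under a library-level alternative. Of all genes, 8.64% were higher and 6.25% lower in the main setting, and 6.46% and 3.34% without the mutant-dominated clusters. Such shares are not given here for the other alternatives. The share of co-expressing cells depended on the rule. Without thinning it was 0.488% of control and 0.618% of mutant cells, and at 5000 UMIs it was 0.0893% and 0.185%. It was 0.928% and 1.52% where 3 genes sufficed, 0.0295% and 0.0217% where 5 were needed, and 0.0147% and 0.0289% where each gene needed 2 UMIs. With *Pcp4* and *Rora* left out and 3 of the other 5 genes needed, it was 0.0368% and 0.0289%. Over all barcodes it was 0.0632% and 0.0618%, so which library had the larger share was not stable. At Leiden resolution 0.5, the leading named class stayed the same for 3 of the 7 genes in control and 4 in mutant cells. At resolution 2 it was 5 and 5, the leading class of *Skor2* and *Calb1* changing in both libraries. Both mutant counts include *Pcp2*, which had at most 3 mutant UMIs in every class and so no leading one. With the genes left in the clustering *Skor2* and *Pcp2* had at most 3 UMIs in every named class. The counts limit *Skor2* and *Pcp2* most, with 20 and 37 kept control UMIs.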
